A study of Mus musculus with 9 samples.

Results

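Expression of 9 genes for transcription factors, some of them linked to the resting state of blood cells, was followed in mouse monocytes kept with platelets. These are 7 Kruppel-like factor genes (Klf2, Klf3, Klf4, Klf6, Klf7, Klf10 and Klf13) and 2 forkhead factor genes of the O class (Foxo1 and Foxo3). The 9 were chosen by name, without a cutoff on their values, and were found by symbol among 55367 genes. All 9 had enough counts to be tested. The monocytes came from adult mice and were kept for 4 h with P7 platelets, with adult platelets or with a control buffer, then washed before polyadenylated RNA was sequenced. P7 usually stands for postnatal day 7 in mice, when pups are still suckling. Each of the 3 groups holds 3 libraries. No genotype or agent other than the platelets distinguishes the groups in the labels, and the sources used here do not give strain, sex or number of animals. Nothing in them says that replicates came from different animals or cultures. The p-values therefore reflect only how much these libraries vary, which may be technical.

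Kruppel-like factors bind GC-rich and CACCC sequences through zinc fingers near the C terminus, and members differ in whether they mainly activate or repress. KLF2 keeps lymphocytes and monocytes in a resting state and restrains inflammatory genes, and KLF4 is needed for the formation of inflammatory monocytes. FOXO proteins enter the nucleus when growth factor signalling is low and switch on genes of cell cycle arrest, stress resistance and self-digestion. The kinases AKT and SGK phosphorylate them and send them to the cytoplasm, so their activity is set largely at the protein level, which RNA counts do not show.

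With P7 platelets, 6 of the 9 genes were lower than in control monocytes and Klf7 was higher, while Klf2 and Klf4 did not pass the test. With adult platelets, Klf2, Klf3 and Foxo3 were lower than in control. Of all 13707 genes tested, 59.2% passed with P7 platelets against control (29.3% lower) and 26.4% with adult platelets (12% lower). Foxo3 showed the largest fall of the 9 with P7 platelets, by 36.2%, and Klf2 the largest with adult platelets, by 34.5%. Levels are given as normalised CPM, which are counts as a share of the library (CPM) after scaling between libraries. Fold changes are log2 values ± SE from edgeR's quasi-likelihood test, and the threshold for a call was 0.05 on the p adjusted by Benjamini and Hochberg's method.

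The libraries held from 29687341 to 35333463 counts with P7 platelets, from 30974956 to 34394579 with adult platelets and from 35314701 to 37065564 in control. All 10 monocyte markers were present in every group, with a summed share of 3.94 to 4.71%, 4.27 to 5.10% and 4.55 to 4.68% of counts in the P7, adult and control libraries. Against control, 7 of the 10 were called higher and Ccr2 lower with P7 platelets (median log2 change 0.34), and Cx3cr1, Itgam and Fcgr1 were called higher with adult platelets. Transcripts of other cell types moved with the groups as well. The 12 erythroid markers summed to 4.48 to 5.67% with P7 platelets, 0.0519 to 0.185% with adult platelets and 0.00234 to 0.0026% in control. The 13 platelet markers summed to 0.126 to 0.148% with P7 platelets, 0.0764 to 0.141% with adult platelets and 0.00071 to 0.00147% in control, with 3 of them at 0 in control. Mitochondrially encoded transcripts took 2.33 to 2.42% with P7 platelets, 2.05 to 2.28% with adult platelets and 1.17 to 1.62% in control. Adult platelet replicate 3 stood apart within its group in neutrophil markers, at 0.0706% against 0.0428% at the lowest, and in the red cell membrane gene Slc4a1, with 434 counts against 55 and 88. The part of these transcripts in the values below was not tested, and in bulk RNA fewer cells of a type and less RNA per cell cannot be told apart. In an alternative fit, platelet, erythroid and mitochondrial transcripts were taken out before scaling, which left 13642 of 13707 genes tested. The number called among the 9 was then 7 for P7 with control, 3 for adult with control and 6 for P7 with adult platelets. The numbers with these transcripts kept were the same. Any reads of the 9 genes from platelets or red cells stay in the counts, so this fit cannot show their part.

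Promoter sequences of 4 genes are shown because their values carry the results: Klf2 for its adult platelet response and its MEF2 site, Klf13 and Foxo3 for their lower levels with P7 platelets, and Klf7 as the gene that rose. They run 5′ to 3′ on the strand of the gene and stop where an annotated exon begins, so a window can be shorter than the 250 bases before the RefSeq start. Capitals mark matches on either strand to GGGCGG (the GC box), CACCC (the box bound by KLF proteins) or the MEF2 consensus. Sequences are from RefSeq on GRCm38.p6.
Klf2 (chr8:72318812-72319032, plus strand): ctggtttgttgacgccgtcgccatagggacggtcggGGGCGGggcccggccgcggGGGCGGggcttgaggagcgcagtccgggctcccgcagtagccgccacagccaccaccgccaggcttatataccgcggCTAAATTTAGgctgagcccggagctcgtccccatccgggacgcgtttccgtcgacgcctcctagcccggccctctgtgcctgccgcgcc
Klf13 (chr7:63938916-63939165, minus strand): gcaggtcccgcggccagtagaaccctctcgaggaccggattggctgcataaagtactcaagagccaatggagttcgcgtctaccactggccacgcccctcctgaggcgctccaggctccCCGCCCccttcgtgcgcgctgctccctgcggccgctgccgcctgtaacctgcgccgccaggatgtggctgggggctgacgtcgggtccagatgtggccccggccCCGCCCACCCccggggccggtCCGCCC
Klf7 (chr1:64121492-64121639, minus strand): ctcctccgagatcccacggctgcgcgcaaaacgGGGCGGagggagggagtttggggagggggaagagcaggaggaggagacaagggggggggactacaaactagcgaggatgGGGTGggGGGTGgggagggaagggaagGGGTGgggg
Foxo3 (chr10:42276756-42276945, minus strand): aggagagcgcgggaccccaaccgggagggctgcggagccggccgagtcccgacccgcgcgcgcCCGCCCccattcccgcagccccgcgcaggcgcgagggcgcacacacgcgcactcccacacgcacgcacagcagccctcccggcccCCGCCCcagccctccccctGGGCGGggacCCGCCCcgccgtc

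Of the 9 genes, 8 have a promoter entry, and all 8 hold GGGCGG in the 250 bases before the RefSeq start, as do 32.7% of 32851 mouse promoter windows of that length. Motifs were counted over these full windows, which run past the end of the shorter sequences printed above. CACCC was in 4 of the 8 (Klf2, Klf3, Klf7 and Klf13), against 52% of all windows. The Klf2 match lies 19 to 15 bases before the start, beyond the printed bases. In Klf13 the CACCC match and a GC box share 1 base, and so do a CACCC match and a GC box in Klf3. The MEF2 consensus was in 1 of the 8, Klf2, where CTAAATTTAG lies 118 to 109 bases before the start, and 2.92% of all windows hold a match. MEF2 proteins act below the kinase ERK5 and are known to raise Klf2. No match to TGTTTAC (a FOXO element, 3.17% of all windows), TGACGTCA (1.55%), TGANTCA (6.75%) or the NF-kB consensus (1.41%) was found in the 8 windows. These matches describe letters and not bound sites. The Klf7 start used by RefSeq lies inside the longer gene of the GENCODE annotation.

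Klf2 codes for the family member best known for holding immune cells at rest. Its level was 80.5, 80.3 and 86.7 CPM with P7 platelets, 73.6, 59.6 and 43.9 CPM with adult platelets, and 97.9, 90.7 and 81.5 CPM in control. All 3 adult platelet libraries lay below all others, and they were spread the widest, with a coefficient of variation of 25.2% against 4.41% with P7 platelets and 9.16% in control. The gene spans chr8 from 72319033 to 72321656 on the plus strand of GRCm38. Against control it was lower with adult platelets by a log2 change of -0.61 ± 0.16 (edgeR's quasi-likelihood test, adjusted p = 0.0193). Leaving out control replicate 1 or 2 ended that call (adjusted p = 0.0584 and 0.0609), and it held without adult platelet replicate 3, at -0.44. With P7 platelets the change from control was -0.13 ± 0.15, with a 95% interval from -0.47 to 0.22 (adjusted p = 0.511). The direct comparison of P7 with adult platelets gave 0.48 ± 0.16 (adjusted p = 0.0343). It did not pass without any 1 of the P7 libraries, adult platelet replicate 2 or 3, or control replicate 2, with adjusted p up to 0.102, and the value was 0.31 without adult platelet replicate 3. The call was also lost with upper-quartile factors and in the fit to only those 2 groups, with adjusted p up to 0.0626.

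Klf4 codes for the factor that monocyte precursors need to become inflammatory monocytes. Its level was 129, 134 and 139 CPM with P7 platelets, 128, 142 and 144.5 CPM with adult platelets, and 130.4, 141 and 134 CPM in control. The 3 groups overlapped. The log2 change was -0.01 with P7 platelets (95% interval from -0.15 to 0.12, adjusted p = 0.85) and 0.03 with adult platelets (95% interval from -0.10 to 0.17, adjusted p = 0.749), both against control. P7 with adult platelets gave -0.05 ± 0.06 (adjusted p = 0.592). The gene lies on chr4 from 55527143 to 55532466. The ratio of Klf4 to Klf2 CPM was 1.60 to 1.66 with P7 platelets, 1.73, 2.39 and 3.30 with adult platelets and 1.33 to 1.65 in control, so the adult platelet libraries had the 3 highest ratios.

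Klf3 codes for a repressor that recruits CtBP proteins. It stood at 237, 252 and 247 CPM with P7 platelets, 207, 243 and 212 CPM with adult platelets, and 287, 308 and 298 CPM in control. All 6 libraries with platelets were below the 3 control libraries, and adult replicate 2 fell within the P7 range. The fall was -0.28 ± 0.07 with P7 platelets (adjusted p = 0.00548) and -0.43 ± 0.07 with adult platelets (adjusted p = 0.00194). P7 with adult platelets gave 0.15 ± 0.07 (adjusted p = 0.0979), which passed without adult platelet replicate 2 (adjusted p = 0.00969). The gene lies on chr5 from 64803388 to 64832901, and its exons overlap the predicted gene Gm20033 on the other strand, which had 3 to 21 counts per library.

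Klf6 codes for a factor that supports inflammatory gene expression in macrophages together with NF-kB. Its level was 245, 203 and 198 CPM with P7 platelets, 282, 287 and 337 CPM with adult platelets, and 293, 271 and 271.5 CPM in control. The P7 libraries were the 3 lowest, and the adult and control libraries overlapped. Klf6 fell by 0.37 ± 0.10 on the log2 scale with P7 platelets relative to control (adjusted p = 0.00851) and by 0.49 ± 0.10 relative to adult platelets (adjusted p = 0.00365). With adult platelets the value against control was 0.12 ± 0.10 (adjusted p = 0.407). The gene lies on chr13 from 5861482 to 5870394.

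Klf7 codes for an activator known from the growth of nerve fibres and from the block of fat cell formation. It had 74.2, 74.9 and 78.6 CPM with P7 platelets, 36.6, 49.9 and 40.5 CPM with adult platelets, and 38.0, 37.0 and 40.1 CPM in control. The P7 libraries stood clear of all 6 others, while the adult and control libraries overlapped. The rise with P7 platelets was 0.98 ± 0.10 against control (adjusted p = 3.28e-05), which is 97.9%, and 0.84 ± 0.10 against adult platelets (adjusted p = 0.000293). With adult platelets the value against control was 0.14 ± 0.10 (95% interval from -0.08 to 0.37, adjusted p = 0.325). Its share of the summed CPM of the 7 Kruppel-like genes was 6.38 to 6.94% with P7 platelets, 3.07 to 4.00% with adult platelets and 2.69 to 3.01% in control. The gene lies on chr1 from 64029447 to 64122282 on the minus strand and its exons overlap Gm13748 and Gm26649 on the other strand. Gm13748 had 0 to 3 counts per library, and Gm26649 was not analysed here.

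Klf10 and Klf13 were both lower with P7 platelets. KLF10 is induced by TGF-beta and slows growth, and KLF13 is known in T cells as an activator of the chemokine gene Ccl5. Klf10 had 84.9, 92.5 and 92.1 CPM with P7 platelets, 99.1, 99.0 and 113 CPM with adult platelets, and 107, 120.05 and 114 CPM in control. The P7 libraries were the 3 lowest, and adult replicate 3 lay within the control range. The changes were -0.34 ± 0.07 for P7 platelets with control (adjusted p = 0.00227), -0.13 ± 0.07 for adult platelets with control (adjusted p = 0.192) and -0.21 ± 0.07 for P7 with adult platelets (adjusted p = 0.0397). The last call was lost without any 1 of the P7 libraries, adult platelet replicate 3 or control replicate 3, with adjusted p up to 0.131, and in the fit to only those 2 groups (adjusted p = 0.0612). Klf10 lies on chr15 from 38291463 to 38300706.

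Klf13 stood at 312, 286 and 292 CPM with P7 platelets, 366, 367 and 374 CPM with adult platelets, and 402, 404 and 396 CPM in control. The 3 groups did not overlap, with P7 lowest and control highest, and the adult and control libraries were tight, with coefficients of variation of 1.14 and 0.971%. Klf13 fell by 0.43 ± 0.05 with P7 platelets relative to control (adjusted p = 5.48e-05) and by 0.31 ± 0.05 relative to adult platelets (adjusted p = 0.000996). The change with adult platelets relative to control, -0.12 ± 0.05, had an adjusted p of 0.0964. It passed with DESeq2's Wald test (adjusted p = 0.0407) and with a term for libraries with many Igkc counts (adjusted p = 0.0433). Klf13 lies on chr7 from 63886351 to 63938915.

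Foxo3 and Foxo1 are the forkhead genes. Foxo3 had 50.2, 47.5 and 47.6 CPM with P7 platelets, 65.4, 60.6 and 64.4 CPM with adult platelets, and 72.8, 78.4 and 76.6 CPM in control. As with Klf13, the 3 groups did not overlap, with P7 lowest and control highest. All 3 comparisons were called: -0.65 ± 0.05 for P7 platelets with control (adjusted p = 8.1e-06), -0.26 ± 0.05 for adult platelets with control (adjusted p = 0.00595) and -0.39 ± 0.05 for P7 with adult platelets (adjusted p = 0.000491). It lies on chr10 from 42181841 to 42276755.

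Foxo1, the member with the fewest counts, had 18.1, 21.3 and 21.9 CPM with P7 platelets, 20.99, 25.9 and 29.8 CPM with adult platelets, and 26.2, 29.7 and 29.9 CPM in control. The P7 libraries lay below all control libraries, and the adult platelet libraries reached into both ranges. Foxo1 fell by 0.48 ± 0.12 with P7 platelets relative to control (adjusted p = 0.00812), a fall of 28.5%. It was not called for adult platelets with control (-0.16 ± 0.12, adjusted p = 0.367) or for P7 with adult platelets (-0.32 ± 0.13, adjusted p = 0.0691), though the second passed without adult platelet replicate 1 (adjusted p = 0.0107), with upper-quartile factors (0.0303), with no filter (0.0318) and with the term for Igkc counts (0.0317). The gene lies on chr3 from 52268336 to 52353221 and overlaps Gm20402 on the other strand, which had at most 1 count in a library. The sum of Foxo1 and Foxo3 was 68.3 to 69.5 CPM with P7 platelets, 86.4 to 94.2 CPM with adult platelets and 99.0 to 108 CPM in control, so the summed level did not overlap between groups.

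**Figure D1:**
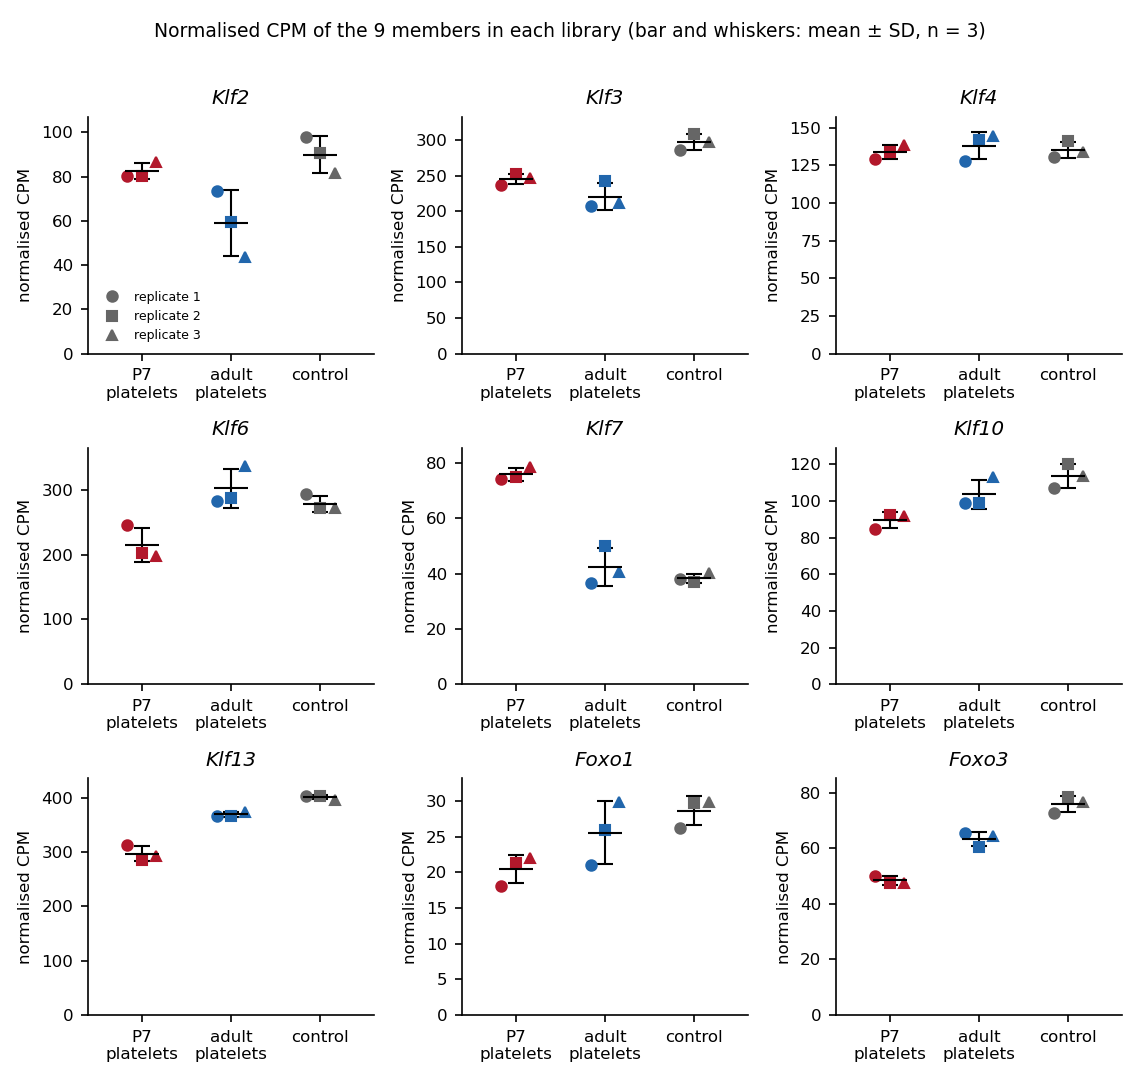
Normalised CPM of the 9 genes in each library (vertical axis from 0), with P7 platelets, adult platelets and control from left to right, symbols for replicates, and bars with whiskers for mean ± SD (n = 3). Klf7 stands at 74.2 to 78.6 CPM with P7 platelets, above the other 6 libraries, Klf13 and Foxo3 fall into 3 separate levels, and the 3 groups of Klf4 overlap.

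Counted together, 7 of the 9 genes were called for P7 platelets with control, 1 higher and 6 lower, where 59.2% of all 13707 genes tested were called (29.9% higher and 29.3% lower). For adult platelets with control, 3 were called, all lower, where 26.4% of all genes were called and 12% were called lower. For P7 with adult platelets, 6 were called, 2 higher and 4 lower, where 39.6% of all genes were called, 19.7% higher and 19.8% lower. With so many genes called in each comparison, nothing particular to the 9 is read from these counts.

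The CPM of the groups did not overlap for the 7 genes called for P7 platelets with control, where 69.1% of all genes tested had groups that did not overlap, 34.5% with P7 higher and 34.7% with P7 lower. For adult platelets with control, 4 genes did not overlap (Klf2, Klf3, Klf13 and Foxo3, all lower), where 42.7% of all genes did not, 21.8% with adult higher and 20.9% with adult lower. For P7 with adult platelets, the 6 called genes did not overlap, where 49% of all genes did not, 24.2% with P7 higher and 24.8% with P7 lower. The median log2 change of the 9 was -0.34 for P7 platelets with control, -0.13 for adult platelets with control and -0.21 for P7 with adult platelets, beside -0.01, 0.00 and -0.02 over all genes tested. Both comparisons with control use the same control libraries, and the comparison of P7 with adult platelets uses the libraries of both.

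Under upper-quartile scaling the median of all genes moved to -0.12 for P7 platelets with control, and the share of calls that were higher was 39.5% with it and 50.5% without it. For P7 with adult platelets that share was 37.2% with it and 49.9% without it. No member changed sign under another scaling. All 7 calls for P7 platelets with control held in each of the 19 alternative fits, leaving out each library in turn included.

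**Figure D2:**
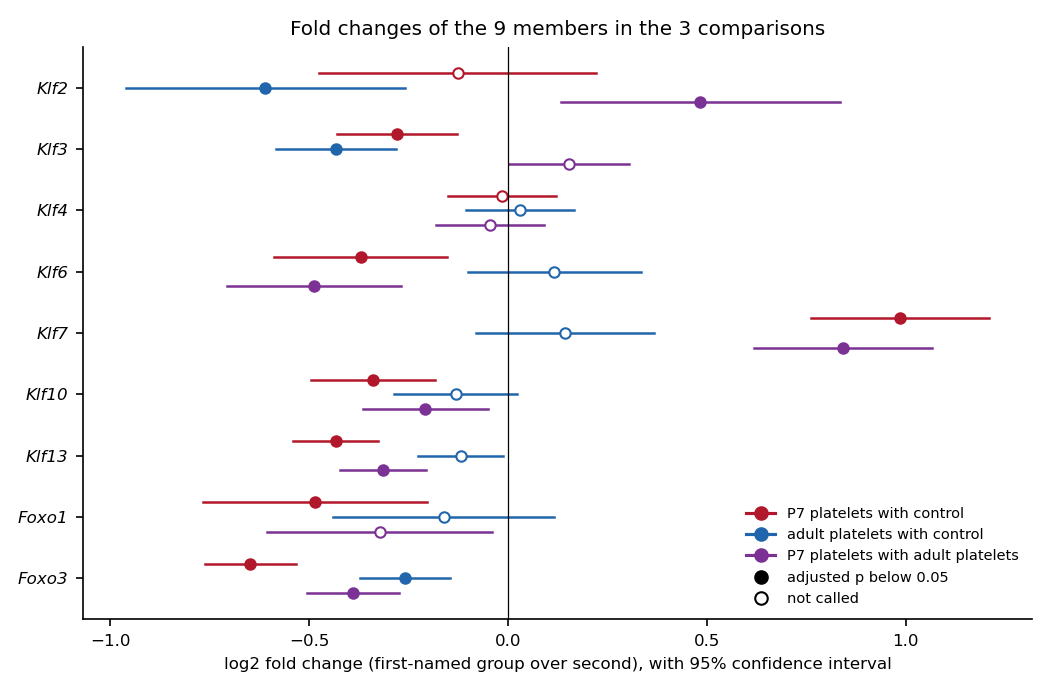
Log2 fold change of each of the 9 genes with its 95% confidence interval (horizontal axis) in the 3 comparisons, with filled points for an adjusted p below 0.05 and open points otherwise. Klf7 lies to the right of 0 in both comparisons that involve P7 platelets, Foxo3 lies to the left in all 3, and Klf2 has its lowest value with adult platelets (-0.61).

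To set genes against each other, levels were divided by length. The length used sums the exons of all annotated transcripts, which number 9 for Klf3 and 1 for Klf2. The order of genes therefore depends on the annotation too, and which transcripts these cells use was not examined. Per kilobase of summed exon length, Klf6 was the highest of the 9 in each group, at 49.1 CPM per kb with P7 platelets, 68.8 with adult platelets and 63.4 in control. Foxo1 was the lowest, at 2.36 CPM per kb with P7 platelets, 2.95 with adult platelets and 3.30 in control. With P7 platelets the order was Klf6, Klf2, Klf4, Klf13, Klf3, Klf10, Klf7, Foxo3 and Foxo1, and the libraries of Klf6 and Klf2, of Klf2 and Klf4, and of Klf3 and Klf10 overlapped. In control the order was Klf6, Klf13, Klf2, Klf4, Klf10, Klf3, Foxo3, Klf7 and Foxo1, with overlap between Klf13 and Klf2, Klf2 and Klf4, and Klf10 and Klf3. Klf7 was above Foxo3 with P7 platelets, at 9.34 against 6.40 CPM per kb. In the other groups it was below Foxo3, at 5.21 against 8.39 CPM per kb with adult platelets and 4.72 against 10.03 CPM per kb in control. Klf2 stood behind Klf6 alone with P7 platelets at 44.7 CPM per kb, behind Klf6, Klf13 and Klf4 with adult platelets at 31.9, and behind Klf6 and Klf13 in control at 48.7.

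**Figure D3:**
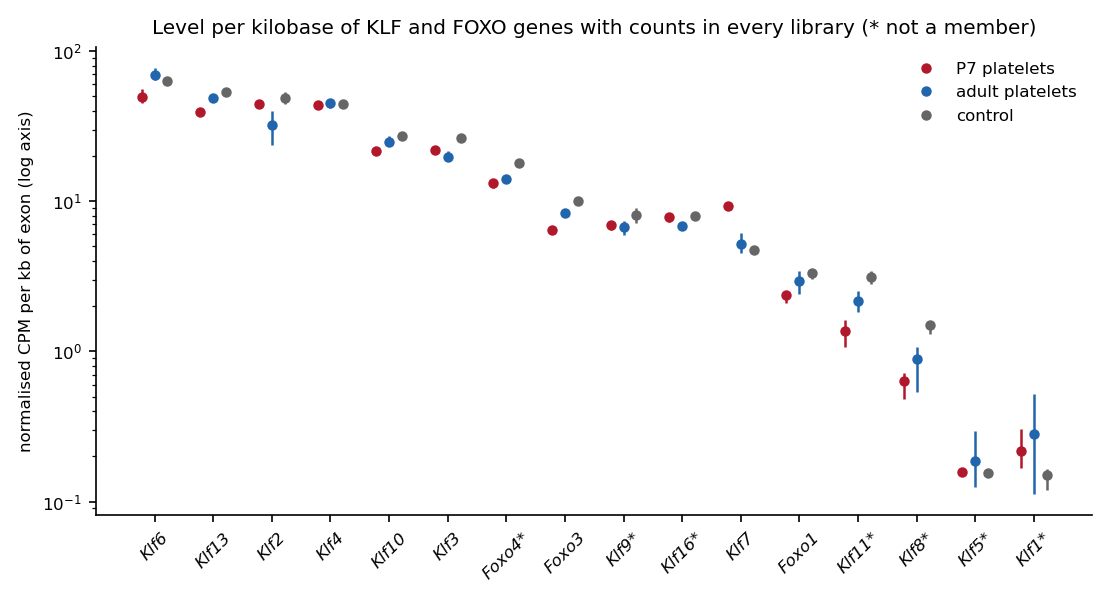
Normalised CPM per kilobase of exon (log axis) for the Kruppel-like and FOXO genes with counts in every library, with points for group means, lines from the lowest to the highest library and asterisks for genes outside the 9. Klf6 leads in each group, at 63.4 CPM per kb in control, and Klf7 with P7 platelets (9.34 CPM per kb) stands above its other levels.

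Of 12 other Kruppel-like and FOXO genes, 7 could be tested, and Klf8, Klf11 and Foxo4 were lower with P7 platelets than in control. These are 42.9% of the 7, where 59.2% of all genes tested were called and 29.3% were called lower. With adult platelets 42.9% of the 7 were called, all lower, where 26.4% of all genes were called and 12% were called lower. Per kilobase of exon, Foxo4 stood above Klf7, Foxo3 and Foxo1 in each group, at 13.2 CPM per kb with P7 platelets, 14.1 with adult platelets and 18.0 in control. Foxo4, another FOXO gene, was at 49.0, 42.9 and 45.7 CPM with P7 platelets, 50.3, 47.9 and 49.2 CPM with adult platelets, and 61.0, 63.7 and 63.6 CPM in control. It fell with both, by 0.45 ± 0.06 with P7 platelets (adjusted p = 9.92e-05) and by 0.35 ± 0.05 with adult platelets (adjusted p = 0.00202). Klf11, a close relative of Klf10, was at 7.06, 6.03 and 4.66 CPM with P7 platelets, 9.25, 7.98 and 10.9 CPM with adult platelets and 12.2, 14.0 and 14.8 CPM in control, and fell by 1.21 ± 0.16 with P7 platelets (adjusted p = 0.000192). With adult platelets its change was -0.54 ± 0.16 (adjusted p = 0.0334), and the call was lost without P7 replicate 2, adult replicate 1 or 2, or control replicate 2 or 3, with adjusted p up to 0.112. Klf8 fell by 1.23 ± 0.26 with P7 platelets (adjusted p = 0.00276). Klf9 had values of -0.23 and -0.28 with P7 and adult platelets against control (adjusted p = 0.0818 and 0.0752), and neither was called. The P7 value passed with the replicate number as a block (adjusted p = 0.0119), upper-quartile factors (0.0183), no filter (0.0469), the term for Igkc counts (0.0458) and without control replicate 1 (0.0274). Leaving out adult replicate 3 or control replicate 1 brought the adult value past the threshold, with adjusted p of 0.0429 and 0.0358. Klf16 was lower with adult platelets by 0.22 ± 0.07 (adjusted p = 0.0402), a call lost without any 1 of 7 of the libraries, all but P7 replicate 1 and control replicate 1.

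Klf1, the red cell member, had 6 to 27 counts per library, with 14, 7 and 8 in P7 libraries, 10, 6 and 27 in adult libraries and 10, 7 and 10 in control, so its counts did not follow the erythroid marker share. Klf5 had 21 to 52 counts per library. Klf12, Klf14, Klf15, Klf17 and Foxo6 were not tested. Klf12 had 0 to 6 counts per library, and Klf14 and Klf17 had 0 in all 9 libraries.

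The lists of inputs and targets that follow are read against all genes tested, of which 59.2% were called with P7 platelets against control (29.9% higher, 29.3% lower) and 26.4% with adult platelets (14.3% higher, 12% lower). All lists were chosen with earlier results of these data known, so their shares are descriptions and not tests. Upstream of Klf2 and Klf4 lies the MEK5-ERK5-MEF2 route. Of its 11 genes tested, 7 were lower (63.6%) and 1 higher with P7 platelets, and 5 were lower (45.5%) and 2 higher with adult platelets, with median log2 changes of -0.26 and -0.18. Mef2d, one of the MEF2 factors, was at 169, 156 and 151 CPM with P7 platelets, 223, 213 and 239.6 CPM with adult platelets and 294, 323 and 329 CPM in control. The 3 groups did not overlap, and it fell by 0.99 ± 0.07 with P7 platelets (adjusted p = 4.38e-06) and by 0.48 ± 0.07 with adult platelets (adjusted p = 0.00121). Map3k3, a kinase above MEK5, fell by 0.50 and 0.31 on the log2 scale with P7 and adult platelets. Mef2c, another MEF2 factor, was at 54.8, 67.9 and 68.1 CPM with P7 platelets, 44.2, 49.9 and 46.6 CPM with adult platelets and 63.0, 77.6 and 77.0 CPM in control. It was lower with adult platelets (-0.63 ± 0.11, adjusted p = 0.00291) and was not called with P7 platelets (-0.19 ± 0.11, adjusted p = 0.149). The P7 value passed with the replicate number as a block (adjusted p = 0.0144), with the term for Igkc counts (0.0079), with upper-quartile factors (0.0308) and without control replicate 1 (0.0376). P7 with adult platelets gave 0.44 (adjusted p = 0.00963). Hdac4, a repressor of MEF2, rose by 0.75 ± 0.07 with P7 platelets (adjusted p = 2.22e-05), and its relative Hdac5 fell by 0.58 ± 0.08 (adjusted p = 0.000257).

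Kruppel-like factors act through corepressors and coactivators. Of 18 genes of these partners, 5 were higher and 4 lower with P7 platelets, which is 50% called, and 1 was lower with adult platelets, which is 5.56% (6 called without adult replicate 2, and 2 without P7 replicate 1 or adult replicate 3). With P7 platelets the acetyltransferase gene Kat2b fell by 0.73 ± 0.07 (adjusted p = 2.57e-05), and the deacetylase gene Hdac1 rose by 0.53 ± 0.06 (adjusted p = 6.23e-05). Sap30, of the same deacetylase complex, rose by 0.76 ± 0.10 (adjusted p = 0.000142). The 1 gene lower with adult platelets was Kat2b (-0.28 ± 0.07, adjusted p = 0.0173), which no longer passed when control replicate 2 or 3 was left out (adjusted p = 0.0731 and 0.0581). Among 7 tested genes with the symbol Sp, 2 were higher and 1 lower with P7 platelets, and 3 were lower with adult platelets. Those 3 were Sp100, Sp110 and Sp140, which code for nuclear body proteins that share only the name with the zinc finger SP factors, and 1 of the 7 was called without adult replicate 1 or 3 or any 1 of the control libraries.

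For FOXO, kinase input comes through PI3K, AKT and SGK. Of 24 genes of the PI3K, AKT and SGK route, 6 were higher and 7 lower with P7 platelets, and 3 were higher and 7 lower with adult platelets (6 called in all without control replicate 2). The calls made up 54.2% of the list with P7 platelets and 41.7% with adult platelets. Sgk1, a kinase that sends FOXO proteins out of the nucleus, was at 243, 221 and 215.5 CPM with P7 platelets, 199, 175 and 192 CPM with adult platelets and 91.4, 94.6 and 95.02 CPM in control. All platelet libraries were above all control libraries, and it rose by 1.28 ± 0.07 with P7 platelets (adjusted p = 1e-06) and by 1.01 ± 0.06 with adult platelets (adjusted p = 1.36e-05). Pik3cd, the leukocyte PI3K catalytic subunit, fell by 0.79 ± 0.05 and 0.44 ± 0.05 with P7 and adult platelets. Pik3ap1, an adaptor of PI3K, rose with P7 platelets by 1.66 ± 0.15 (adjusted p = 1.62e-05) and had 0.28 ± 0.15 with adult platelets (adjusted p = 0.186, or 0.0323 with the term for Igkc counts). The phosphatase gene Phlpp1, which acts against AKT, fell by 0.80 ± 0.15 and 1.02 ± 0.15 with P7 and adult platelets.

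Of 25 other regulators of FOXO proteins, 13 were higher and 4 lower with P7 platelets, and 7 were higher and 3 lower with adult platelets, so that 68% were called with P7 platelets and 40% with adult platelets. The number called with adult platelets was 6 without control replicate 1, 5 without control replicate 2 and 6 without control replicate 3. Mdm2, a ubiquitin ligase that acts on FOXO proteins, rose by 0.65 ± 0.05 with P7 platelets (adjusted p = 5.72e-06) and by 0.37 ± 0.05 with adult platelets (adjusted p = 0.000699). Ywhae, a 14-3-3 protein of the kind that holds phosphorylated FOXO in the cytoplasm, rose by 0.45 ± 0.04 with P7 platelets and by 0.23 ± 0.04 with adult platelets. Stk4, a kinase that favours FOXO in the nucleus, fell by 0.38 ± 0.06 with P7 platelets and by 0.33 ± 0.06 with adult platelets. Ikbke rose by 2.05 ± 0.27 with P7 platelets (adjusted p = 0.000143), with 538, 614 and 616 CPM against 170.1, 120.3 and 136 CPM in control.

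Known FOXO target genes split evenly with P7 platelets. Of 41 tested, 17 were higher and 17 lower with P7 platelets, and 6 were higher and 12 lower with adult platelets, with medians of -0.02 and -0.05. The list holds Klf2, which is among the 12 lower with adult platelets. It shares Pik3ca, Rictor and Trib1 with the list of the PI3K, AKT and SGK route. The calls made up 82.9% of the list with P7 platelets and 43.9% with adult platelets. Among the lower ones, Cdkn1b, which codes for the cell cycle inhibitor p27, was at 94.7, 95.1 and 87.1 CPM with P7 platelets, 121, 122 and 124.5 CPM with adult platelets and 159, 176 and 170.1 CPM in control. The groups did not overlap, and Cdkn1b fell by 0.87 ± 0.05 (adjusted p = 2.49e-06) and 0.46 ± 0.05 (adjusted p = 0.000489) with P7 and adult platelets. Fbxo32, a ubiquitin ligase known from muscle wasting, was at 2.91, 2.26 and 2.15 CPM with P7 platelets, 11.8, 8.81 and 11.6 CPM with adult platelets and 16.9, 19.5 and 17.7 CPM in control. It fell by 2.88 ± 0.15 with P7 platelets (adjusted p = 1.12e-06). The self-digestion kinase gene Ulk1 fell by 0.88 ± 0.06 with P7 platelets and by 0.48 ± 0.06 with adult platelets. Among the higher ones, the catalase gene Cat rose by 0.76 ± 0.06 with P7 platelets (adjusted p = 5.26e-06), with 125, 111 and 121 CPM against 69.4, 71.8 and 69.2 CPM in control. Catalase is abundant in red cells, and the erythroid marker share was also highest with P7 platelets, whose part in the Cat value was not tested. The death gene Bcl2l11 rose by 0.60 ± 0.10 with P7 platelets and by 0.66 ± 0.10 with adult platelets.

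Genes reported to be raised by KLF2 or KLF4 were called in both directions, with 7 higher and 5 lower of 17 with P7 platelets (70.6% called) and 2 higher and 4 lower with adult platelets (35.3% called). Thbd, the thrombomodulin gene and a known KLF2 target of vessel walls, was at 19.5, 18.7 and 19.0 CPM with P7 platelets, 32.9, 26.5 and 39.1 CPM with adult platelets and 66.4, 90.8 and 87.2 CPM in control. The 3 groups did not overlap, and it fell by 2.09 ± 0.15 with P7 platelets (adjusted p = 5.72e-06). Thbd was lowest with P7 platelets and Klf2 with adult platelets, and a link between these genes was not tested. Arg1, an arginase gene raised by KLF4 in macrophages, rose by 3.07 ± 0.38 with P7 platelets and by 4.87 ± 0.37 with adult platelets. It had 1.77 to 2.84 CPM, 5.84 to 10.4 CPM and 0.125 to 0.38 CPM in P7, adult and control libraries. The control values rest on few reads, so the size of these rises is imprecise. Cd14 rose with P7 platelets by 0.99 ± 0.11 (adjusted p = 6.73e-05), and Itgb7 fell by 0.79 ± 0.10 (adjusted p = 0.00015).

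Genes reported to be held down by KLF2 or KLF4 had the largest median of the input and target lists, 1.77 with P7 platelets and 0.59 with adult platelets. Of 15 tested, 13 were called with P7 platelets and 5 with adult platelets, all of them higher. These are 86.7% of the list with P7 platelets, where 29.9% of all genes were called higher, and 33.3% with adult platelets, where 14.3% were called higher and 26.4% were called in all. The adult platelet count was 3 without adult replicate 2 and 2 without control replicate 2 or 3. Tnf, the gene of tumour necrosis factor, was at 406, 597 and 607 CPM with P7 platelets, 82.0, 121 and 58.6 CPM with adult platelets and 52.3, 39.0 and 46.2 CPM in control. It rose by 3.55 ± 0.27 with P7 platelets (adjusted p = 7.48e-06). Hif1a, a KLF2-restrained factor of the response to low oxygen, rose by 1.299 ± 0.11 with P7 platelets and by 0.61 ± 0.11 with adult platelets. Cxcl10 was at 141, 235 and 314 CPM with P7 platelets, 5.48, 9.67 and 5.40 CPM with adult platelets and 5.73, 3.78 and 4.20 CPM in control. The genes of this list are also genes of inflammation that many other factors raise, and they were chosen with earlier results known. With P7 platelets neither Klf2 nor Klf4 was called against control (log2 changes of -0.13 and -0.01). Klf2 was lower with adult platelets (-0.61), where this list had the smaller median. A link between the list and Klf2 or Klf4 was not tested. Il12b had 675, 1457 and 1574 counts with P7 platelets and 1 count in the control libraries together, so no fold is given for it.

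Of 23 genes linked to quiescence in other blood cells, 12 were lower and 1 higher with P7 platelets, and 8 were called with adult platelets, all lower, with medians of -0.36 and -0.18. The calls in either direction made up 56.5% of the list with P7 platelets and 34.8% with adult platelets, beside 59.2% and 26.4% of all genes. The lower calls made up 52.2% and 34.8%, beside 29.3% and 12%. The list shares Cdkn1b, Tsc22d3, Txnip and others with the FOXO targets. Mxd4, an antagonist of MYC, was at 14.5, 12.4 and 11.7 CPM with P7 platelets, 33.5, 28.7 and 38.6 CPM with adult platelets and 50.2, 50.6 and 49.9 CPM in control, and fell by 1.97 ± 0.11 with P7 platelets (adjusted p = 1.63e-06). Tsc22d3 fell by 1.12 ± 0.07 and 0.40 ± 0.07 with P7 and adult platelets. Tob1, which slows growth, fell by 0.62 ± 0.08 with P7 platelets and by 0.77 ± 0.08 with adult platelets. The 1 gene that rose with P7 platelets was Slfn2 (1.10 ± 0.10, adjusted p = 1.36e-05), a member of the interferon-induced Schlafen family that keeps T cells quiescent.

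**Figure D4:**
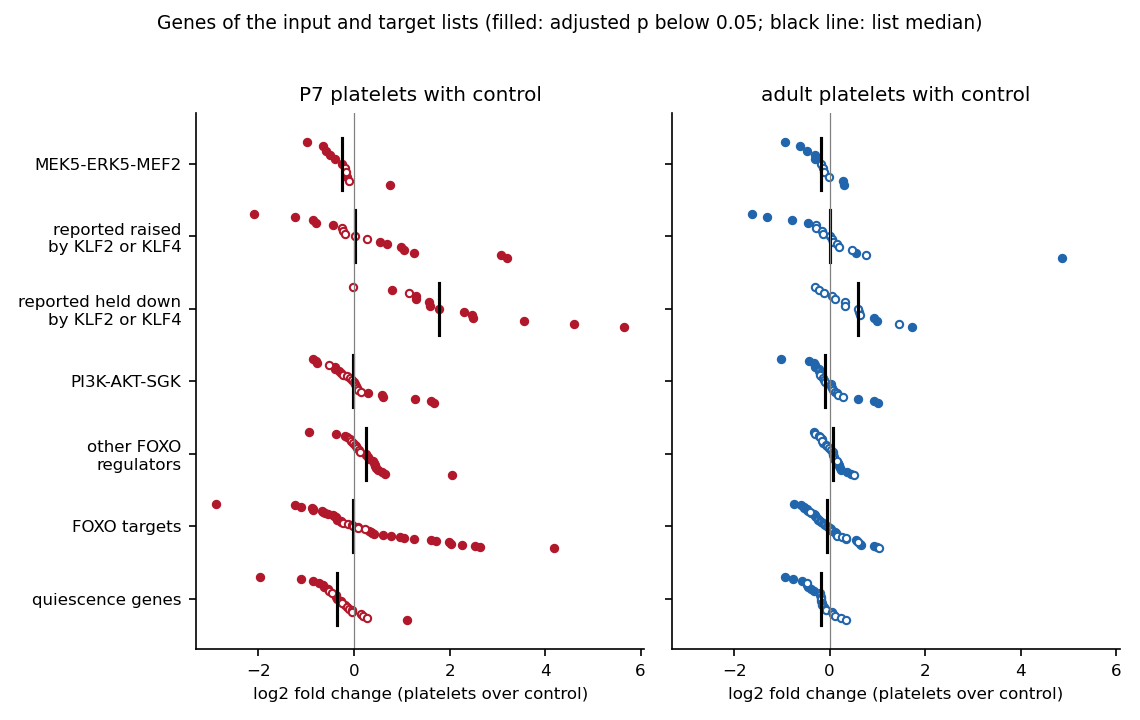
Log2 fold change (horizontal axis, platelets over control) of each tested gene in 7 lists of inputs and targets, for P7 platelets (left) and adult platelets (right), with filled points for an adjusted p below 0.05 and black lines for list medians. Genes reported to be held down by KLF2 or KLF4 lie mostly to the right with P7 platelets (median 1.77), FOXO targets lie on both sides (median -0.02), and Il12b, with 1 count in the control libraries, is not drawn.

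The genes most like each of the 9 over the 9 libraries were taken by Pearson's r of log2 CPM among 8381 genes. The libraries fall into 3 groups, so r mostly follows the group levels. Klf13 was closest to Tep1 and Tom1l2, both at r of 0.996 or more, and Foxo3 to Dedd2 and Vps26c, likewise at 0.996 or more. Klf7 was closest to Ptpn12 (r = 0.993) and to the interferon-induced gene Ifi203 (r = 0.991), Klf6 to Ctnnbip1 (0.980) and Slc25a24 (0.978), and Foxo1 to Ppp2r3a (0.985) and Rabgap1l (0.982). Klf3 was closest to Elovl5 (0.976) and Dyrk2 (0.973), and Klf10 to Faap100 (0.976) and Fem1c (0.973). Klf2 was closest to Cd180 (0.930) and Syt11 (0.929), and Klf4, which hardly moved, to Pola1 (0.920) and Smurf2 (0.912). Among the 9 themselves, Klf13 and Foxo3 had r of 0.977, Klf10 and Foxo1 0.942, Klf7 and Klf13 -0.949 and Klf2 and Klf4 -0.544.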

How the data were processed

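Polyadenylated RNA of monocytes was sequenced in 9 libraries, 3 per group, as 75 nt single ends from a stranded kit, per the labels' protocols. The deposited values are raw counts of reads per gene symbol, made by the authors and not normalised. Tools named in the submitters' processing notes, without roles, are Salmon 1.3.0, featureCounts, Subread 2.0.1, STAR 2.7.6a and fastp 0.20.1. The sources used here do not give the genome build, the annotation or the strand setting, so reads of genes that overlap on opposite strands may not have been told apart. Positions, exon lengths and overlaps come from GENCODE M21 on GRCm38, whose gene names match 53292 of 55367 symbols, and promoter windows from RefSeq on GRCm38.p6.

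The counts were fitted in edgeR 4.0.16 (R 4.3.3) with the quasi-likelihood test on all 9 libraries, TMM factors and filterByExpr by group at a minimum count of 10. It kept 13707 genes, with 6 residual degrees of freedom. Calls used p-values adjusted over all of these by Benjamini and Hochberg's method, below 0.05. Alternatives were DESeq2 size factors, upper-quartile factors, no filter, a mean of at least 50 counts, DESeq2 1.42.0 Wald tests, limma-voom (limma 3.58.1), a replicate block, a term for the 4 libraries with many counts of the antibody light chain gene Igkc, fits without platelet, erythroid and mitochondrial transcripts, fits to the compared groups alone, and leaving out each library. The fit was tested on simulated data. Replicate numbers are shared between groups in the labels. Deviations of P7 and control libraries with the same number had r of 0.576, 0.209 and 0.335. Those with different numbers had r from -0.464 to 0.307. The main fit did not pair libraries. The replicate block, used only as an alternative, changed no call among the 9 genes for P7 platelets with control. The 9 genes and all lists were chosen with earlier results of these data known. The named genes are the 9, the other family genes, up to 4 genes per list and comparison with the smallest p, and for each of the 9 the 2 genes with the highest r.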

Additional observations from a re-analysis of the deposited data

How the results depend on the processing

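For P7 platelets with control, the 7 calls held in each of the 19 alternative fits, and Klf2 and Klf4 passed in none of them. Over the 3 comparisons, 487 of 513 refitted values of the 9 genes stayed on their side of the threshold, 17 lost the call, 9 gained it and 0 called values reversed. Leaving out 1 library at a time, the number of all genes called was 7101 to 8482 for P7 platelets with control, 2031 to 3774 for adult platelets with control (2031 without control replicate 2 and 2207 without control replicate 3) and 3978 to 5540 for P7 with adult platelets. Among the 9 genes it was 7 in each such fit for P7 platelets with control, 2 to 3 for adult platelets with control and 4 to 7 for P7 with adult platelets. With the replicate block 8565, 4228 and 5965 genes were called for P7 with control, adult with control and P7 with adult platelets, and 7, 3 and 8 of the 9. The 2 gained in the last were Klf3 (adjusted p = 0.0344) and Foxo1 (adjusted p = 0.00673), and Klf9 passed for adult platelets with control (adjusted p = 0.0112). Adult and control libraries with the same number had r of 0.557, 0.346 and -0.0768, and P7 and adult libraries 0.486, 0.281 and -0.0813. Different numbers gave r up to 0.424 and 0.428 in these comparisons. Replicate 1 of each group had many Igkc counts, at 606, 772 and 668 CPM before scaling in P7, adult and control libraries. Adult replicate 3 also did, at 409.5 CPM, while replicate 2 had 171.5, 123.1 and 130.6 CPM. In each comparison the r of the libraries numbered 1 was above every r of different numbers. What libraries of the same number share is not given in the labels and was not tested. Upper-quartile factors ended the call of Klf2 for P7 with adult platelets (adjusted p = 0.0592) and DESeq2 size factors that of Klf10 (adjusted p = 0.0536). Within the libraries with many Igkc counts and within the others, compared after the data were seen and without a test, each called change of the 9 kept its direction (for P7 platelets with control, Klf7 0.96 and 0.99 and Foxo3 -0.54 and -0.70). The first split held 1 P7, 2 adult and 1 control library, and the second 2, 1 and 2. Each of these values thus rests on very few libraries. By ratio, the called changes that differed most between the splits were those of Foxo3 for adult platelets with control (-0.17 and -0.35) and Klf10 for P7 with adult platelets (-0.32 and -0.10). The causes of these differences were not tested. With 3 libraries a group, changes near the size of the SE could not be called, and low genes such as Klf1 and Klf5 gave little precision.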
